A study of Mus musculus with 12 samples.

Results

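The change of the transcriptome between day 1 and day 3 of adipogenic induction was followed in control 3T3-L1 cells, over the 6 siCtrl libraries of a series of 12. The libraries were chosen by their labels alone, 3 labelled 24 h and 3 labelled 72 h of the hormone mixture, and a filter on low counts left 13829 of the 39423 genes in the table for testing. 3T3-L1 is an established mouse preadipocyte line, and siCtrl is a nontargeted control siRNA delivered with Lipofectamine. Transfected cells had been confluent for 2 days when the mixture was given. The mixture (DMI) holds dexamethasone, 3-isobutyl-1-methylxanthine and insulin and was present in all 6 cultures until collection, so the comparison is of a longer with a shorter exposure and no uninduced cells enter it. Day of DMI, days since transfection and days at confluence moved together and cannot be told apart. The other 6 libraries of the series received siRNA against PRMT1 (siPRMT1), an arginine methyltransferase, and were sampled at the same days. The labels do not say that replicates came from separate cultures, so p-values measure the spread between these libraries, which may be technical.

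As background, DMI first sends confluent 3T3-L1 preadipocytes back into the cell cycle for mitotic clonal expansion. In these first hours dexamethasone acts through the glucocorticoid receptor, 3-isobutyl-1-methylxanthine keeps cAMP from being broken down, and the early factors C/EBPβ and C/EBPδ appear. They are followed by PPARγ and C/EBPα, the pair that turns on the genes of fat storage, lipid droplets, insulin-regulated glucose uptake and adipokine secretion.

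Totals of counts per library ran from 15116462 to 42357137, with the most in siCtrl day 1 replicate 1. Where a gene had no count, up to 3 are allowed, or 0.0708 CPM (counts scaled to the library total) in the deepest and 0.198 CPM in the shallowest library, counting error only. The first principal component carried 87.4% of the variance and separated the days, and the second (6.60%) set siCtrl day 1 replicate 3 apart from the other libraries. That library differed from its 2 replicates by a chi-square per gene of 50.6 and 30.8, against 5.30 between those 2 and 6.97 to 10.4 among the day 3 libraries. Counts of genes encoded by the mitochondrial genome made up 0.0791% to 0.105% of each library at day 1 and 0.128% to 0.175% at day 3. Levels are given as FPKM, counts scaled to gene length and library total, which set genes of different length on 1 scale. Prmt1, the gene targeted in the other arm, had 82.9, 83.4 and 91.3 FPKM at day 1 and 111, 120 and 140 FPKM at day 3. Its log2 fold change of 0.46 and that of the common reference gene Actb, 0.35, did not reach the threshold given next.

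Between day 1 and day 3, 3141 genes rose (22.7% of those tested) and 2828 fell (20.4%), together 43.2%, by edgeR's quasi-likelihood test. Calls needed a p below 0.05 after Benjamini-Hochberg adjustment and a log2 fold change above 0.5 or below -0.5. The 3 libraries of a day lay entirely on 1 side of the other 3 in 5822 of these 5969 genes, and in 64.4% of all genes tested. The change was about as frequent in each direction, but its size was not symmetrical: 1660 genes rose and 1285 fell by more than 2-fold, 632 rose and 255 fell by more than 4-fold, and 201 rose and 19 fell by more than 16-fold. The median log2 fold change over all genes tested was -0.004, the value beside which the medians of gene lists below are read. The counts of list members that rose or fell are likewise read beside the 22.7% and 20.4% of all genes tested. A gene with hardly any count on day 1 passed the filter through its day 3 counts and had to be higher, so list counts describe the tested members and support nothing further. In RNA from a whole culture, a higher level in each cell and more cells of a kind cannot be told apart.

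**Figure D1:**
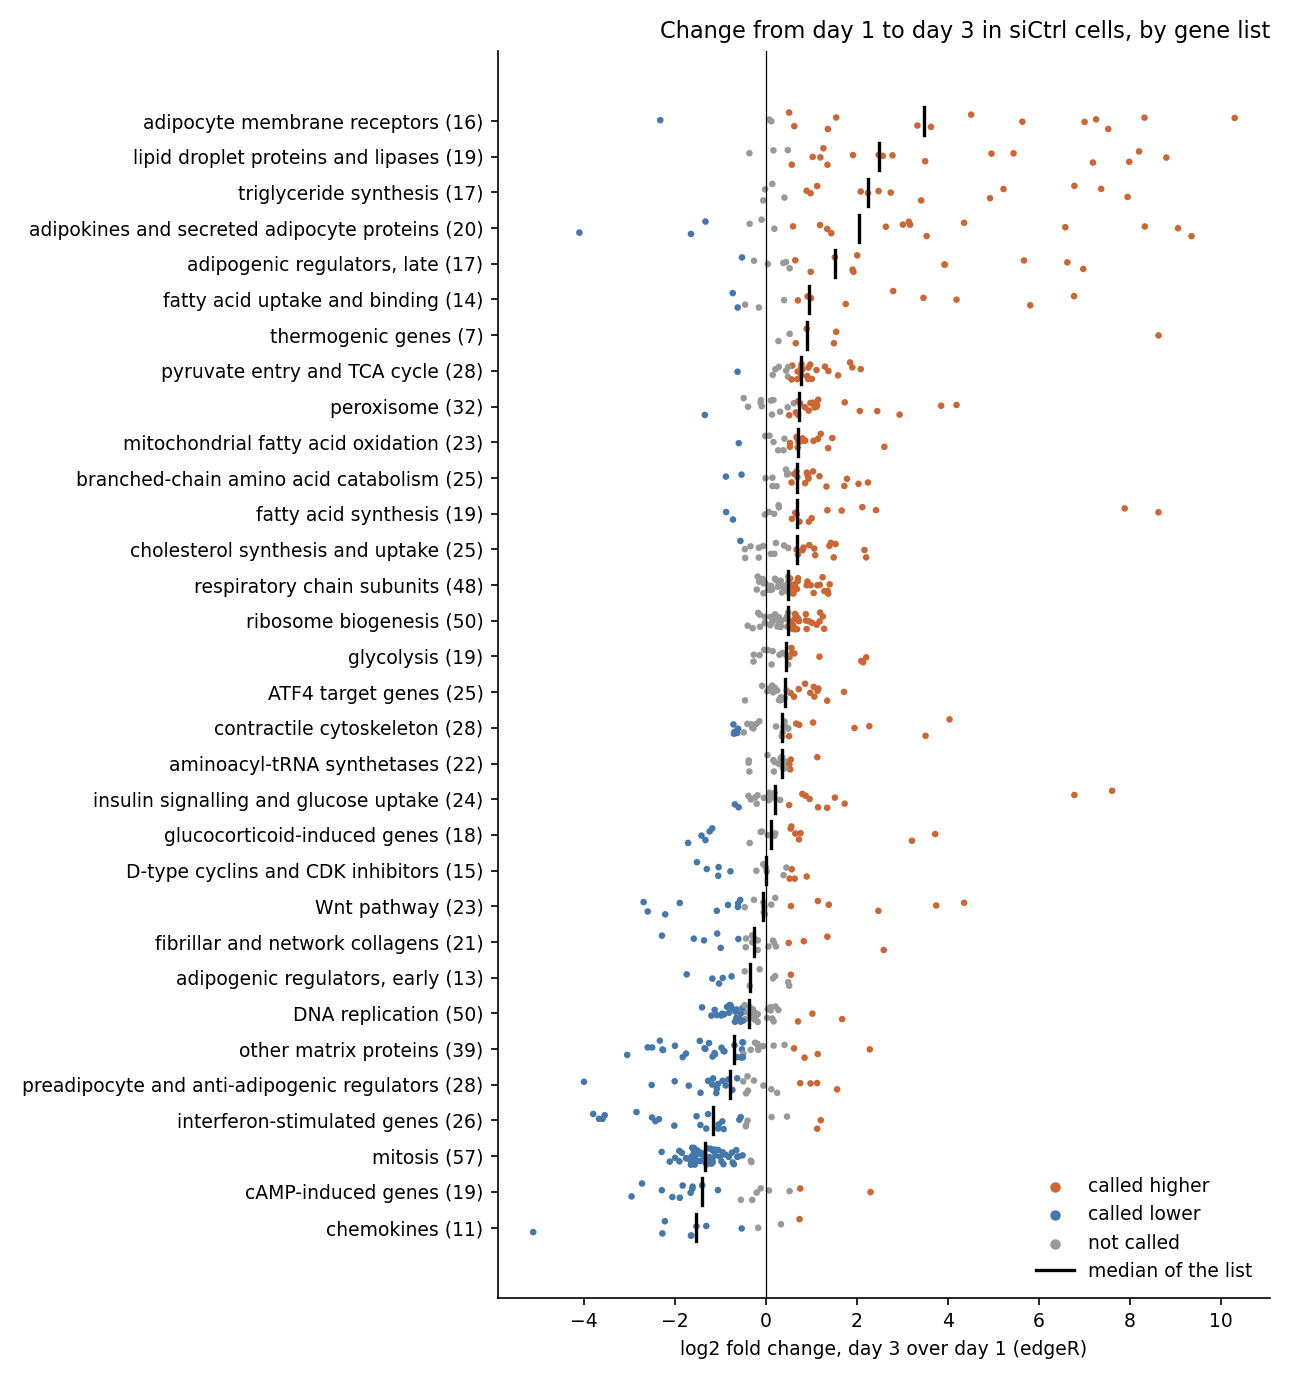
Log2 fold change from day 1 to day 3 in siCtrl cells (horizontal axis, edgeR) for every tested member of 32 gene lists, with the number tested in brackets; each point is 1 gene, coloured by its call, and the black bar is the list's median. The lists of receptors, adipokines, lipid droplet proteins, fatty acid synthesis and thermogenic genes hold members with log2 fold changes over 8. In fatty acid synthesis that member is Elovl3, with 1 count over the day 1 libraries. The lists of mitochondria, peroxisomes and ribosome biogenesis have medians between 0.48 and 0.78. The mitosis, cAMP, interferon and chemokine lists have medians between -1.53 and -1.16. Points of genes without a count on day 1 are fitted values.

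Pparg and Cebpa, the genes of the central factors of the adipocyte state, were already present on day 1 and rose by day 3. Pparg, which encodes the nuclear receptor PPARγ (chromosome 6, 115360877 to 115490404 in RefSeq's GRCm38.p6 annotation, used for all coordinates here, plus strand), had 25.0, 26.3 and 28.4 FPKM on day 1 and 115, 110 and 111 FPKM on day 3. The days did not overlap, and the log2 fold change was 2.01 (standard error 0.0801, edgeR's adjusted p = 3.7e-08). Cebpa, which encodes C/EBPα, went from 16.2, 16.3 and 24.1 to 70.5, 78.6 and 76.1 FPKM, a log2 fold change of 1.93 (standard error 0.154, edgeR's adjusted p = 3.5e-06), with the highest day 1 value in siCtrl day 1 replicate 3. Klf15, a later zinc-finger activator of adipocyte genes, was close to absent on day 1, at 0.07, 0.04 and 0.03 FPKM. On day 3 it stood at 2.81, 2.90 and 3.02 FPKM, a log2 fold change of 5.68. Of 17 tested late regulators 11 rose and 1 fell, with a median log2 fold change of 1.52, and 5 were not called; over all genes 22.7% rose and 20.4% fell. Of the 11, the partner receptor gene Rxrg and the carbohydrate-response factor gene Mlxipl had no count in any day 1 library and 39 and 31 counts over the day 3 libraries. Against a floor of 3 counts in each library these were at least 5.72-fold and at least 4.27-fold higher on day 3; these 2 genes were picked after their values were seen.

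Of the early regulators 5 of 13 fell and 7 were not called. Cebpb, which encodes C/EBPβ, had 71.3, 96.2 and 130.5 FPKM on day 1 and 49.8, 70.2 and 42.4 FPKM on day 3. Its days came close without overlapping, and the log2 fold change was -0.95 (standard error 0.230, edgeR's adjusted p = 0.0053). Cebpd, for C/EBPδ, had 36.6, 40.5 and 55.5 FPKM on day 1 against 34.8, 38.9 and 35.2 FPKM on day 3, which overlapped, and was not called (log2 fold change -0.35, edgeR's adjusted p = 0.061). The members that fell were Cebpb, Klf4, Klf5, Nfil3 and Fosl2, and 1 rose, Zfp467, with a median of -0.35 over the list, beside 20.4% of all genes that fell; all but Cebpb were named after their values were seen.

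Genes that mark or hold the preadipocyte state fell in 16 of 28 cases and rose in 4, with a median log2 fold change of -0.78, where 20.4% of all genes fell. Dlk1, the secreted and membrane-bound inhibitor known as preadipocyte factor, went from 38.8, 44.0 and 54.7 to 21.5, 23.4 and 19.7 FPKM (log2 fold change -1.16, edgeR's adjusted p = 3.9e-05). Ly6a, the surface antigen Sca-1 of mesenchymal progenitors, had 438, 431 and 378 FPKM on day 1 and 24.6, 25.1 and 32.0 FPKM on day 3. Every day 1 library of Ly6a was over 10 times every day 3 library, and the log2 fold change was -3.999; Ly6a belongs to a family of similar genes, between which the counting may divide reads. The 10 fibroblast markers included 9 that were tested, of which 8 fell and none rose, with summed levels of 3331 to 3414 FPKM on day 1 and 1556 to 1740 FPKM on day 3.

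The lists of triglyceride synthesis and of the lipid droplet rose strongly, with 13 of 17 and 16 of 19 tested members higher and none lower. The triglyceride list also holds genes of supply rather than synthesis, the glycerol channel gene Aqp7 and the glucose carrier gene Slc2a4. Both are among its rises, and Slc2a4 is counted again in the insulin signalling list below. The median log2 fold changes of the triglyceride and lipid droplet lists were 2.25 and 2.48. Gpd1, the glycerol 3-phosphate dehydrogenase that supplies the glycerol backbone (chromosome 15, 99717593 to 99725008, plus strand), had 0.48, 0.45 and 0.62 FPKM on day 1 and 121, 153 and 129 FPKM on day 3. The lowest day 3 library was over 100 times the highest day 1 library, and the log2 fold change was 7.96 (standard error 0.163, edgeR's adjusted p = 8.8e-10). Dgat2, which catalyses the last step of triglyceride assembly, went from 4.86, 4.38 and 6.23 to 148, 170 and 176 FPKM (log2 fold change 4.93). Pck1, the phosphoenolpyruvate carboxykinase of glyceroneogenesis, had no count on day 1 and 16, 15 and 21 counts on day 3, at least 7.22-fold higher against the floor of 3 counts in each library, but only 0.30 to 0.38 FPKM on day 3.

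Among the droplet proteins, Plin1, the perilipin that guards the droplet surface, had 0.43, 0.70 and 1.07 FPKM on day 1 and 175, 196 and 179 FPKM on day 3 (log2 fold change 7.99, standard error 0.230, edgeR's adjusted p = 5.2e-09). Cidec, which fuses droplets into larger ones, went from 3.55, 3.78 and 6.03 to 627, 726 and 671 FPKM (log2 fold change 7.19). The days were far apart in both. Lipe, the hormone-sensitive lipase, rose with them from 7.11, 9.08 and 11.5 to 108, 114 and 106 FPKM (log2 fold change 3.50), and G0s2, an inhibitor of the first lipase of the cascade, from 0.50, 0.72 and 1.0 to 303, 337 and 346 FPKM (log2 fold change 8.81). Day 1 values of Plin1, Cidec, Lipe and G0s2 were each highest in siCtrl day 1 replicate 3. Plin2 was listed at 0 in all 6 libraries under its own name and was not tested; a row of the same name with a number suffix held 37.6, 37.7 and 47.4 FPKM on day 1 and 144, 161 and 163 FPKM on day 3.

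**Figure D2:**
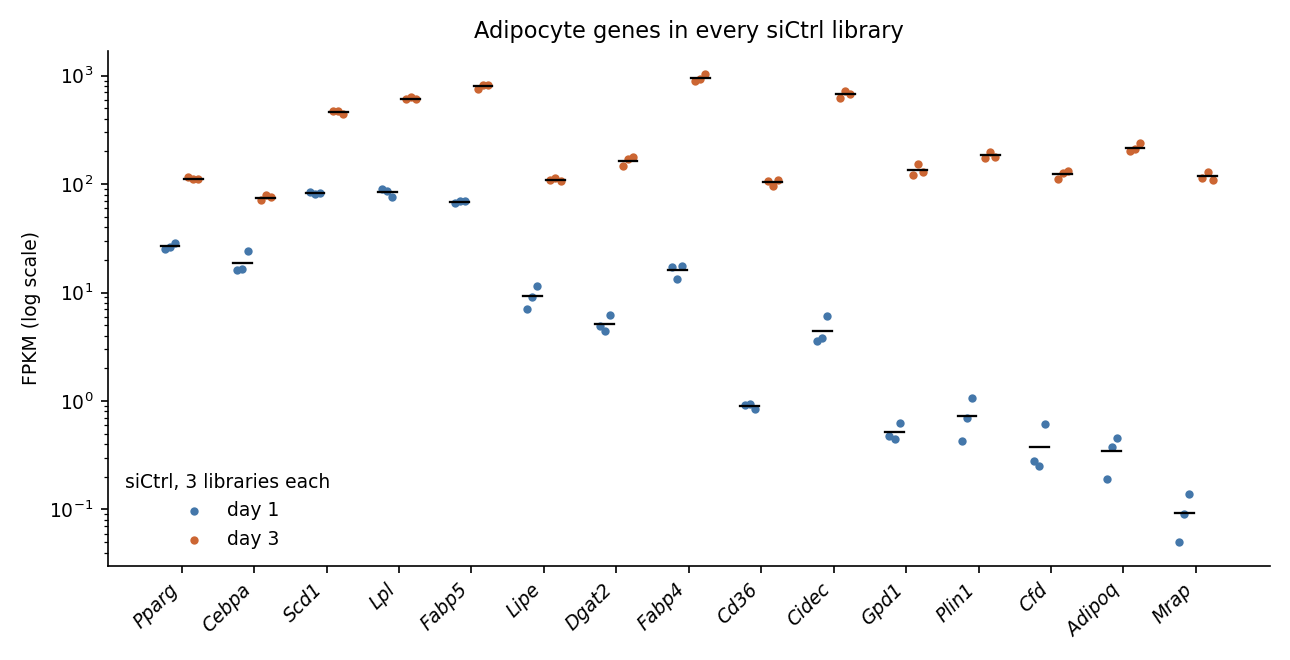
FPKM on a log scale of 15 adipocyte genes in the 3 day 1 and 3 day 3 siCtrl libraries; each point is 1 library and each bar the mean of 3. Pparg, Cebpa, Scd1, Lpl and Fabp5 start at 16 FPKM or more and rise by under 12-fold, while Mrap, Adipoq, Cfd, Plin1 and Gpd1 start near or below 1 FPKM and reach 110 to 238 FPKM.

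Fatty acid synthesis rose less evenly, with 12 of 19 members higher and 2 lower (median 0.68). Scd1, the stearoyl-CoA desaturase, had 83.6, 80.1 and 83.5 FPKM on day 1 and 475, 475 and 441 FPKM on day 3, a log2 fold change of 2.42 (standard error 0.0675, edgeR's adjusted p = 4.3e-09). Fasn, the fatty acid synthase, had 61.1, 65.0 and 85.5 FPKM on day 1 and 141, 162 and 144 FPKM on day 3, a log2 fold change of 1.01. Thrsp, a lipogenic regulator, went from 0.09, 0.04 and 0.21 to 24.1, 29.8 and 29.6 FPKM (log2 fold change 7.89), on 4, 1 and 5 counts on day 1. The fatty acid elongase genes Elovl5 and Elovl6, chosen after their values were seen, were the 2 members that fell, with log2 fold changes of -0.72 and -0.87, and the genes for the entry enzymes Acly and Acaca had log2 fold changes of 0.29 and 0.18 and were not called.

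Genes of fatty acid uptake and binding rose in 9 of 14 cases and fell in 2 (median 0.96). Fabp4, the adipocyte fatty acid binding protein, had 17.3, 13.5 and 17.5 FPKM on day 1 and 899, 933 and 1030.3 FPKM on day 3, a log2 fold change of 5.82 (standard error 0.129, edgeR's adjusted p = 1.3e-09). Its relative Fabp5 started higher, at 67.0, 69.9 and 69.1 FPKM, and reached 753, 813 and 822 FPKM (log2 fold change 3.47). The days were far apart in both, and the summed level of the list went from 430 to 457 FPKM up to 3066 to 3337 FPKM. Cd36, a fatty acid translocase of the cell surface, rose from 0.91, 0.94 and 0.85 to 108, 96.4 and 109 FPKM (log2 fold change 6.78). Lpl, the lipoprotein lipase, rose from 90.0, 86.6 and 75.3 to 608, 629 and 605 FPKM (log2 fold change 2.80) and took 0.249% of all day 3 counts.

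Secreted adipocyte proteins rose in 14 of 20 cases and fell in 3 (median 2.04). Adipoq, which encodes adiponectin (chromosome 16, 23146536 to 23157968, plus strand), had 0.19, 0.38 and 0.46 FPKM on day 1 and 199.6, 212 and 238 FPKM on day 3, a log2 fold change of 9.36 (standard error 0.203, edgeR's adjusted p = 1.2e-09). Cfd, the complement factor adipsin, went from 0.28, 0.25 and 0.61 to 112, 126 and 132 FPKM, and Retn, for resistin, from 0.90, 1.12 and 0.99 to 88.8, 100.5 and 109.6 FPKM. Their log2 fold changes were 8.33 and 6.58, and no library of a day came near the other day. Adig, for the small adipocyte protein adipogenin, went from 0.07, 0.15 and 0.07 to 51.9, 57.3 and 61.5 FPKM (log2 fold change 9.06), on 2, 2 and 1 counts on day 1. The members that fell were the cytokine gene Il6, the chemokine gene Ccl2 and the protease inhibitor gene Serpina3n, with log2 fold changes of -4.10, -1.65 and -1.33; Il6 and Serpina3n were singled out after their values were seen. Angptl4, a secreted inhibitor of Lpl, had 2 counts in all under its own name, while a suffixed row had 5.33, 6.01 and 7.07 FPKM on day 1 and 13.3, 11.4 and 11.8 FPKM on day 3.

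Receptors of hormones and metabolites rose in 13 of 16 cases and fell in 1 (median 3.48). Mrap, the accessory protein that brings the corticotropin receptor to the surface (chromosome 16, 90738324 to 90749776, plus strand), went from 0.05, 0.09 and 0.14 to 114, 129 and 110 FPKM. Its log2 fold change fitted by edgeR, 10.31 (standard error 0.211, edgeR's adjusted p = 8.8e-10), was the largest fitted among the genes named. It rests on 2, 2 and 3 counts on day 1 against 1930 to 2607 on day 3. Of the 23 receptor genes 9 were under 1 FPKM in all 6 libraries, among them Adrb3, the adipocyte β3-adrenergic receptor, with no count on day 1 and 8, 5 and 20 counts on day 3. Of the insulin signalling list 10 of 24 rose and 2 fell, with a median of 0.20, beside 22.7% and 20.4% of all genes tested. Slc2a4, for the insulin-regulated glucose carrier GLUT4, had 2, 0 and 1 counts on day 1 and 90, 66 and 121 counts on day 3. The ratio of its CPM was 127 with a 95% exact interval from 42.8 to 617 for counting error only, and its day 3 level was 1.43, 1.40 and 1.62 FPKM. Slc2a1, the basal carrier GLUT1, was far more abundant and rose from 42.1, 41.0 and 48.8 to 77.0, 85.2 and 79.3 FPKM (log2 fold change 0.80, edgeR's adjusted p = 5.4e-05).

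Of the 10 largest rises, those of Mrap, Adipoq, Adig, G0s2, Cfd, Plin1 and Gpd1 are given above. Krt8, an epithelial keratin, had 1 count over the day 1 libraries and 346, 246 and 391 counts on day 3, a ratio of 1347 with a 95% exact interval from 241 to 53260 that covers counting error only. Its day 3 level was 9.54, 9.02 and 9.07 FPKM. Nat8l, the N-acetylaspartate synthase, went from 0.01, 0.03 and 0.04 to 8.29, 9.33 and 9.56 FPKM (log2 fold change 8.36), on 4, 4 and 6 counts on day 1. The uncharacterised A530016L24Rik went from 0.14, 0.08 and 0.14 to 49.4, 54.1 and 49.1 FPKM (log2 fold change 8.61).

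Mitochondrial and peroxisomal pathways rose broadly but by smaller amounts. Of the pyruvate and citrate cycle genes 21 of 28 rose and 1 fell (median 0.78), and 27 of these 28 went up on average. Cs, the citrate synthase, had 131, 126 and 137 FPKM on day 1 and 264, 278 and 275 FPKM on day 3, a log2 fold change of 0.98 (standard error 0.0709, edgeR's adjusted p = 1.8e-06). Idh3a, a subunit of the NAD-dependent isocitrate dehydrogenase, went from 46.5, 44.6 and 42.5 to 167, 164 and 175 FPKM (log2 fold change 1.85). The exception was Idh2, for the NADP-dependent mitochondrial enzyme, which fell (log2 fold change -0.62) and was singled out after its value was seen. Fatty acid oxidation rose in 16 of 23 cases and fell in 1 (median 0.70), and Acadm, the medium-chain acyl-CoA dehydrogenase, went from 67.1, 71.5 and 70.6 to 156, 152 and 147 FPKM (log2 fold change 1.05). The 1 member that fell, Cpt1a, encodes the carnitine palmitoyltransferase at the entry of the pathway (log2 fold change -0.60; named after its value was seen).

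Nuclear-encoded respiratory chain subunits rose in 22 of 48 cases, and none fell. Their median of 0.48 lay just under 0.5, and 40 of the 48 were positive. The peroxisome list rose in 20 of 32 cases and fell in 1 (median 0.73). The 1 that fell, Pmp22 (log2 fold change -1.34), encodes a myelin protein and is not a peroxisomal gene. It was singled out after its value was seen, and no other member was called lower. Pex11a, which divides and elongates peroxisomes, went from 3.05, 2.84 and 3.16 to 44.5, 46.1 and 47.2 FPKM (log2 fold change 3.86, standard error 0.0966, edgeR's adjusted p = 3.0e-09). Branched-chain amino acid breakdown rose in 16 of 25 cases and fell in 2 (median 0.69). Its first enzyme appears in 2 forms that moved in opposite directions. Bcat2, the mitochondrial transaminase, rose from 16.4, 16.7 and 19.4 to 69.3, 77.3 and 79.5 FPKM (log2 fold change 2.04), while Bcat1, the cytosolic form, fell (log2 fold change -0.88) and was named after its value was seen.

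Of 19 glycolysis genes 8 rose and none fell (median 0.45), and the abundant Gapdh, Pkm, Tpi1 and Pgk1 were not called, with log2 fold changes between -0.27 and 0.15; these 4 were named after their values were seen. Cholesterol synthesis rose in 13 of 25 cases and fell in 1 (median 0.68). Hmgcs1, the HMG-CoA synthase, went from 52.9, 53.7 and 47.5 to 102, 83.9 and 97.3 FPKM (log2 fold change 0.81, edgeR's adjusted p = 3.3e-05), and the days did not overlap. Ribosome biogenesis factors rose in 23 of 50 cases with none lower (median 0.48), and aminoacyl-tRNA synthetases in 4 of 22 (median 0.35), beside 22.7% of all genes. ATF4 target genes rose in 11 of 25 cases with none lower (median 0.41). Asns, the asparagine synthetase, had 132, 124 and 130 FPKM on day 1 and 169, 161 and 179 FPKM on day 3. It did not overlap between the days, but its log2 fold change of 0.33 lay under the threshold.

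The cell cycle lists parted. All 57 mitosis genes were lower in every day 3 library than in any day 1 library, beside 64.4% of all genes tested without overlap in either direction. Of the 57, 55 were called lower and none higher, beside 20.4% and 22.7% of all genes tested. The median log2 fold change was -1.34. The 2 that were not called were Bub3 and Ccnf, at -0.32 and -0.33. The summed level of the list went from 3169 to 3345 FPKM on day 1 down to 1542 to 1568 FPKM on day 3. DNA replication genes fell in 21 of 50 cases and rose in 3, with a median of -0.37, and 4 of the 50 fell by more than 2-fold against 43 of the 57 mitosis genes. The summed level of the replication list was 1986 to 2188 FPKM on day 1 and 1647 to 1709 FPKM on day 3.

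**Figure D3:**
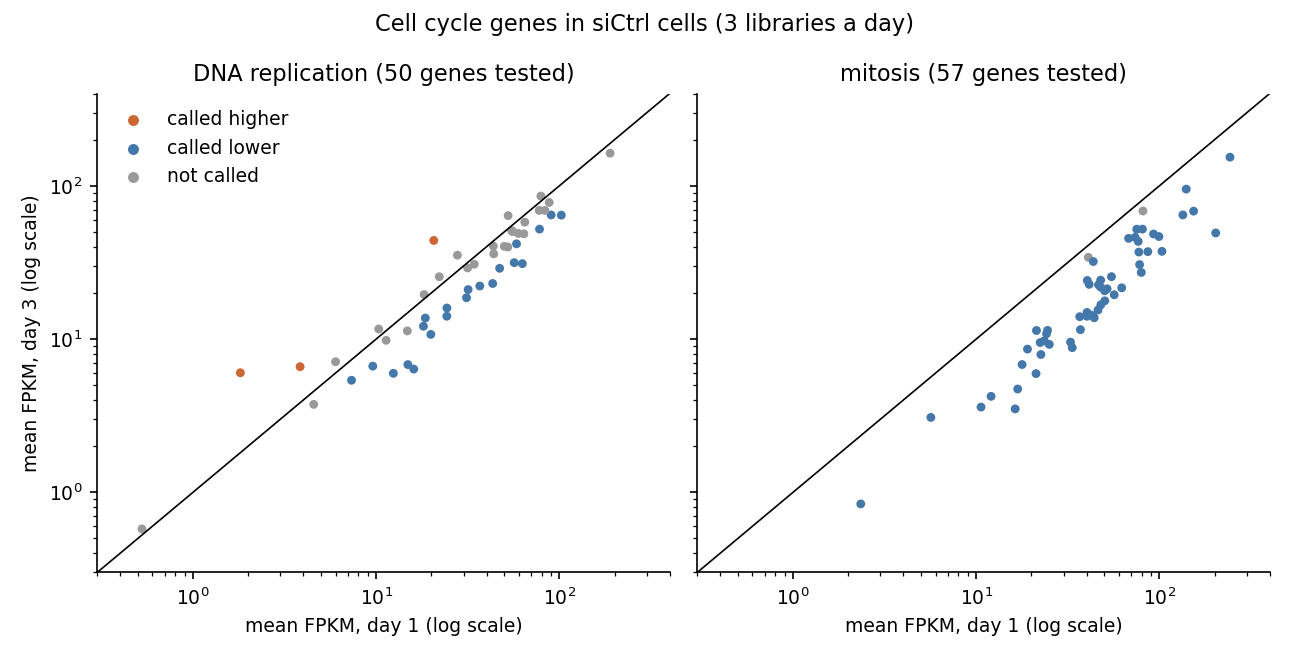
Mean FPKM over 3 siCtrl libraries on day 1 (horizontal, log scale) and day 3 (vertical, log scale) for the DNA replication list (left, 50 genes) and the mitosis list (right, 57 genes); each point is 1 gene coloured by its call and the line marks equal levels. Every mitosis gene lies below the line. Most replication genes lie below it too, many of them close to it, with 21 called lower and 3 higher.

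Cdk1, the kinase that drives entry into mitosis, had 78.1, 74.7 and 78.8 FPKM on day 1 and 35.4, 32.7 and 42.8 FPKM on day 3, a log2 fold change of -1.13 (standard error 0.105, edgeR's adjusted p = 9.6e-06). Ccnb1, its cyclin B1 partner, went from 153, 158 and 149 to 65.5, 63.3 and 76.1 FPKM (log2 fold change -1.24). Top2a, the topoisomerase that disentangles chromosomes, fell furthest of those named, from 228, 212 and 168 to 51.9, 44.8 and 50.9 FPKM (log2 fold change -2.11). Mki67, the proliferation antigen Ki-67, had 57.6 and 55.3 FPKM in siCtrl day 1 replicates 1 and 2 but 26.6 FPKM in replicate 3, against 24.4, 23.2 and 20.1 FPKM on day 3. Its log2 fold change was -1.11 (standard error 0.235, edgeR's adjusted p = 0.0024).

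Of the replication genes, Mcm5, Rrm2 and Cdc6 hardly moved beside them, but 21 of the 50 on the list fell. The 4 that fell by more than 2-fold were Pola1, Pole, Gins3 and Rpa3, with log2 fold changes of -1.40, -1.20, -1.13 and -1.08. These 4 were named after their values were seen. Mcm5, a subunit of the replicative helicase, had 74.9, 74.6 and 83.1 FPKM on day 1 and 65.1, 72.2 and 69.8 FPKM on day 3. Rrm2, the ribonucleotide reductase subunit of S phase, had 90.2, 85.2 and 88.5 FPKM on day 1 and 78.1, 80.1 and 75.3 FPKM on day 3. Neither overlapped between the days, and their log2 fold changes of -0.24 and -0.25 lay under the threshold. Cdc6, which loads the helicase at origins, had 5.95, 5.65 and 6.40 FPKM on day 1 and 7.20, 7.73 and 6.40 FPKM on day 3 (log2 fold change 0.17, edgeR's adjusted p = 0.20). The 3 replication genes that rose were the cyclin E genes Ccne1 and Ccne2, which start S phase, with log2 fold changes of 1.02 and 0.71, and Ung, for uracil-DNA glycosylase, at 1.68; all 3 were named after their values were seen.

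The promoters of the replication and mitosis lists were searched for the letters of elements known from cell cycle genes, on both strands of windows from 250 bases before to 50 bases after the start (RefSeq, GRCm38.p6). The E2F letters TTTCCCGC, TTTGGCGC, TTTCGCGC or TTTGCCGC were found for 15 of the 40 replication genes with a window (37.5%), for 5 of 47 mitosis genes (10.6%) and for 2.60% of all 27025 genes with one. The letters TTTGAA or TTCGAA of the cell cycle homology region (CHR) were found for 36 of 47 mitosis genes (76.6%), 8 of 40 replication genes (20%) and 21.7% of all genes. CCAAT was found for 35 mitosis genes (74.5%), 24 replication genes (60%) and 41.1% of all. The stretches below show the CHR or E2F match nearest the start for each named gene of the 2 lists that has one, with the matched letters in capitals as they stand on the gene's strand; none of the 3 kinds of letters contains another.
Cdk1, CHR letters, chr10:69352914-69352935, minus strand: gcggcgagTTTGAAactgctgg
Top2a, CHR letters, chr11:99024199-99024220, minus strand: gataaaggTTCAAAtgaaacta
Mki67, CHR letters, chr7:135716464-135716485, minus strand: cgttttggTTTGAAtcgggcgg
Cdk1, E2F letters, chr10:69353028-69353051, minus strand: ccgctcccTTTCGCGCtctgcgct
Mcm5, E2F letters, chr8:75109352-75109375, plus strand: gaactttcGCGCCAAAacgtccag
Cdc6, E2F letters, chr11:98908005-98908028, plus strand: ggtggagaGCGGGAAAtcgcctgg

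Within the mitosis list, the 36 genes with CHR letters had a median log2 fold change of -1.35 and the 11 without them -1.51. Over all genes tested with a window, 24.6% of the 1629 with CHR letters fell and 19.7% of the 8334 without. CCAAT was also found for Mcm5, Cdk1, Top2a and Mki67. The window of Ccnb1 held CCAAT but not the CHR letters, and that of Rrm2 CCAAT but not the E2F letters. For other lists, the letters TGATGNAA of the ATF4 element were found for 8 of 25 ATF4 target genes (32%) against 4.51% of all genes, and in Asns they lay 23 bases before the start.
Asns, ATF4 element letters, chr6:7693217-7693240, minus strand: cagccacaTGATGAAActtcccgc

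The C/EBP letters TTGCNNAA were found for 4 of 20 droplet genes (20%), 4 of 19 adipokine genes (21.1%) and 2 of 15 fatty acid synthesis genes (13.3%), against 12.2% of all. The sterol element letters TCACNCCAC were found for 1 of 18 cholesterol genes, Hmgcs1 (5.56%), against 1.44% of all. A match describes the letters of this window and is not a measured binding site.

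Of the regulators of the G1 phase 4 of 15 tested rose and 5 fell, with a median of -0.004, near the shares over all genes (22.7% and 20.4%). Ccnd1, for cyclin D1, had 42.4, 42.02 and 46.8 FPKM on day 1 and 40.8, 41.4 and 37.1 FPKM on day 3 and was not called (log2 fold change -0.21). Cdkn1a, for the inhibitor p21, rose from 49.5, 49.6 and 50.5 to 102, 99.1 and 91.8 FPKM (log2 fold change 0.90, standard error 0.0780, edgeR's adjusted p = 6.3e-06). Other inhibitor genes, named after their values were seen, fell, with log2 fold changes of -1.515 for Cdkn2b, -1.30 for Cdkn1b and -0.78 for Cdkn2d. Cdkn1c was listed with 1 count in all; Fabp3, Isg15, Rbp4 and Plin2 under its own name were listed at 0 too, and whether such values come from the counting was not tested, so they are not read as absence.

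Genes known to respond to cAMP fell in 11 of 19 cases, all by more than 2-fold, and rose in 2 (median -1.40), while the mixture was still present. They included the nuclear receptor genes Nr4a1, Nr4a2 and Nr4a3 at log2 fold changes of -2.29, -1.66 and -2.72, and the phosphodiesterase genes Pde4b, Pde4d and Pde10a at -1.62, -2.06 and -2.95; these were named after their values were seen. Crem, a cAMP-response element modulator, had 0.94 to 1.19 FPKM on day 1 and 0.88 to 0.94 FPKM on day 3 and was not called. Glucocorticoid-responsive genes split, with 7 of 18 higher and 5 lower (median 0.12), beside 22.7% and 20.4% of all genes tested. Fkbp5, the receptor's cochaperone, had 11.6, 12.8 and 13.1 FPKM on day 1 and 13.2, 11.8 and 12.2 FPKM on day 3, and Per1, a clock gene with glucocorticoid and cAMP response elements, had 15.9, 16.6 and 18.8 against 16.1, 17.0 and 16.6 FPKM. Both overlapped between the days, and their log2 fold changes of -0.09 and -0.11 were not called. Tsc22d3, Sgk1 and Dusp1 fell (log2 fold changes -1.18, -1.24 and -1.71), and Hsd11b1, the reductase that activates glucocorticoids inside the cell, rose (3.21); these 4 were named after their values were seen.

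The extracellular matrix list without collagens fell in 25 of 39 cases and rose in 4 (median -0.69), with summed levels of 4921 to 5173 FPKM on day 1 and 2885 to 3027 FPKM on day 3. Fn1, for fibronectin (chromosome 1, 71585473 to 71653234, minus strand), had 674, 699 and 695 FPKM on day 1 and 141, 149 and 141 FPKM on day 3, a log2 fold change of -2.33 (standard error 0.0613, edgeR's adjusted p = 3.6e-09). Lox, the lysyl oxidase that cross-links collagen and elastin, went from 159, 162 and 147 to 29.8, 26.0 and 25.4 FPKM (log2 fold change -2.60). The large proteoglycan gene Vcan, for versican, took the largest share of counts of any gene on day 1, 0.735%, and fell from 543, 528 and 365 to 147, 137 and 128 FPKM (log2 fold change -1.87), its lowest day 1 value being in siCtrl day 1 replicate 3.

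Of the collagen chains 6 of 21 fell and 4 rose (median -0.26), near the shares over all genes (20.4% and 22.7%). The fibrillar chains Col1a1, Col1a2 and Col3a1 fell: Col1a1 from 246, 262 and 300.1 to 127, 151 and 148 FPKM, Col1a2 from 603, 626 and 652 to 244, 260.0 and 265 FPKM, and Col3a1 from 480, 503 and 498 to 245, 251 and 244 FPKM. Their log2 fold changes were -0.99, -1.36 and -1.07, and the days did not overlap in any of them. Other fibrillar chains did not fall. Col5a3 and Col27a1 rose (log2 fold changes 0.83 and 0.502), and Col5a1, Col5a2, Col11a1 and Col11a2 were not called (-0.44 to -0.18). Among the type IV chains Col4a5 fell (-0.60). Col5a3, Col27a1, Col5a1, Col5a2, Col11a1, Col11a2 and Col4a5 were named after their values were seen. The basement membrane chain Col4a1 was not called, with 415, 430 and 478 FPKM on day 1 and 480, 498 and 466 FPKM on day 3, which overlapped (log2 fold change 0.06). Nor were the type VI chains Col6a1 and Col6a2, at log2 fold changes of -0.30 and -0.18. The third type VI chain, Col6a3, rose from 157, 160.0 and 175 to 412, 460 and 446 FPKM (log2 fold change 1.35, standard error 0.0737, edgeR's adjusted p = 2.7e-07) and took the largest share of counts of any gene on day 3, 0.476%.

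**Figure D4:**
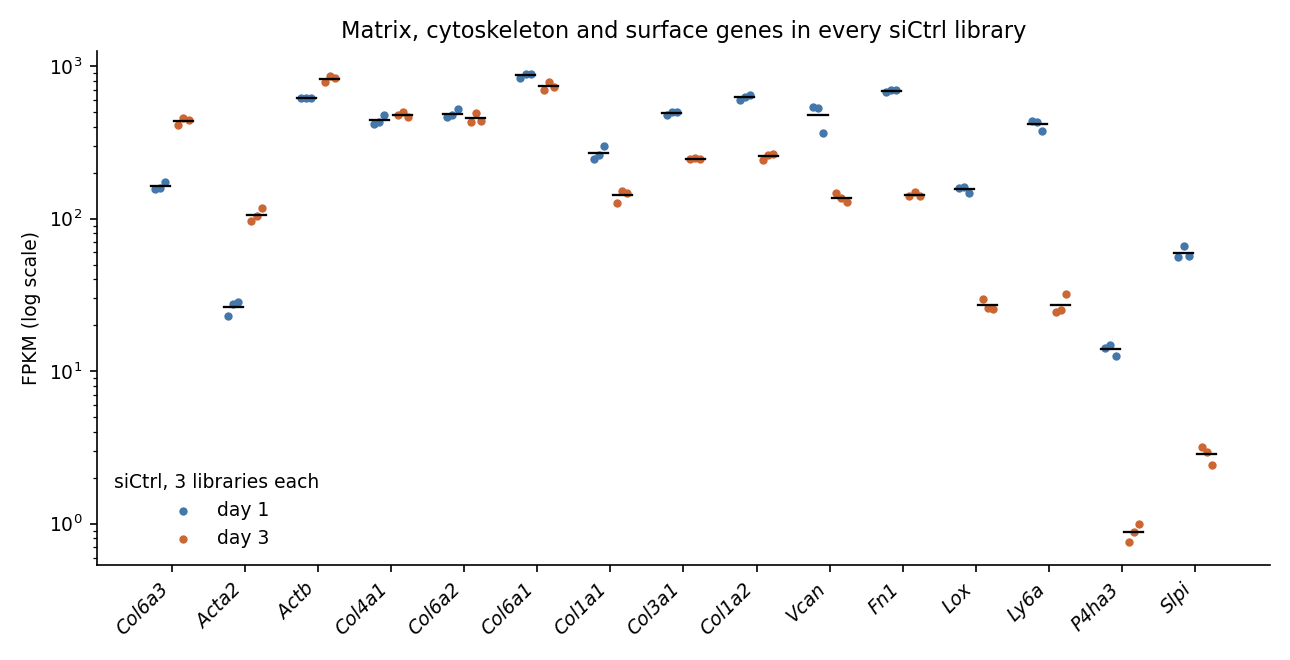
FPKM on a log scale of 15 matrix, cytoskeleton and surface genes in the 3 day 1 and 3 day 3 siCtrl libraries; each point is 1 library and each bar the mean of 3. Col6a3 and Acta2 are higher on day 3, Col4a1 and Col6a2 overlap, and the genes from Col1a1 to Slpi are lower. As fitted by edgeR, their falls run from 1.99-fold for Col1a1 to 16.4-fold for P4ha3 and 22.0-fold for Slpi.

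Of the contractile cytoskeleton 8 of 28 rose and 5 fell (median 0.36), near the 22.7% and 20.4% over all genes. Acta2, smooth muscle α-actin, rose from 22.9, 27.5 and 28.4 to 97.1, 105 and 117 FPKM (log2 fold change 1.95, standard error 0.111, edgeR's adjusted p = 3.5e-07). Tagln, another smooth muscle gene, was listed with 1 count over the 6 libraries and was not tested, a value under the same doubt as that of Cdkn1c.

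Interferon-stimulated genes fell in 19 of 26 cases and rose in 2 (median -1.16), and their summed level went from 601 to 648 FPKM on day 1 down to 217 to 258 FPKM on day 3. Usp18, a negative regulator of the interferon receptor, rose (log2 fold change 1.13) from a mean of 0.95 to 2.21 FPKM. The antiviral genes Mx1, Mx2, Ifi44 and Oasl2 fell (log2 fold changes -3.80, -3.67, -3.59 and -3.54) from mean levels of 0.62 to 2.03 FPKM on day 1, and most of the list's summed level was Ifitm3, which fell from a mean of 520 to 135 FPKM; these 5 and Usp18 were named after their values were seen. Chemokine genes fell in 8 of 11 cases and rose in 1 (median -1.53). Ccl2, which attracts monocytes, went from 30.1, 26.9 and 16.6 to 8.34, 6.57 and 9.66 FPKM (log2 fold change -1.65, edgeR's adjusted p = 1.3e-04). Cxcl12, which holds progenitors in their niche, was the most abundant at 149.99, 154 and 148 FPKM on day 1 and 111, 108 and 110 FPKM on day 3; its log2 fold change of -0.53 lay close to the threshold and was no longer called when only library totals were used for scaling (-0.46).

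Wnt pathway genes rose in 6 and fell in 9 of 23 cases (median -0.05), beside 22.7% and 20.4% of all genes tested. Sfrp5, a secreted Wnt antagonist, rose from 0.06, 0.05 and 0.05 to 1.23, 1.32 and 1.21 FPKM (log2 fold change 4.36), on 2 to 5 counts a library on day 1. The common target gene Axin2 had 1 count in all. Among thermogenic genes 5 of the 7 tested rose, but Ucp1, the uncoupling protein of brown fat, had no count in any library, which allows up to 3 counts in each, and 11 of the 18 were under 1 FPKM in every library. Ppargc1a, a coactivator of mitochondrial genes, had 0.34, 0.27 and 0.18 FPKM on day 1 and 0.48, 0.40 and 0.35 FPKM on day 3. It was not called (log2 fold change 0.52, edgeR's adjusted p = 0.069), but was under 5 of 15 alternatives.

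The 10 largest falls and rises were taken among called genes averaging 5 CPM or more, and that of Ly6a is given above. Ramp3, a partner of the calcitonin receptor family, went from 15.6, 15.3 and 19.7 to 0.25, 0.63 and 0.18 FPKM, a log2 fold change of -5.75 (standard error 0.286, edgeR's adjusted p = 1.5e-07). Slpi, a secreted inhibitor of leukocyte proteases, had 55.8, 65.7 and 56.9 FPKM on day 1 and 3.18, 2.95 and 2.44 FPKM on day 3 (log2 fold change -4.46). Syt13, a synaptotagmin of membrane traffic, went from 5.87, 5.38 and 6.97 to 0.28, 0.26 and 0.17 FPKM (log2 fold change -4.78), and P4ha3, a collagen prolyl hydroxylase subunit, from 14.3, 14.8 and 12.6 to 0.76, 0.88 and 1.0 FPKM (log2 fold change -4.04). The days were separated by more than 10-fold in each of these 4. The other 5 were the chemokine scavenger receptor gene Ackr3, the matrilin gene Matn4, the prostaglandin F receptor gene Ptgfr, Pi15 and the small GTPase gene Gem, with log2 fold changes between -3.75 and -3.40.

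On day 1 the 10 genes with the highest shares of counts were Vcan, Fn1, Eef1a1, Eef2, Col6a1, Col4a1, Col1a2, Lrp1, Mdm2 and Hsp90ab1. The translation factor genes Eef1a1 and Eef2, the chaperone gene Hsp90ab1 and Mdm2, for the p53 ubiquitin ligase, stayed among the 10 on day 3 and were not called, with log2 fold changes between -0.39 and 0.03. Lrp1, an endocytic receptor gene, fell from 205, 209 and 240 to 61.7, 69.7 and 65.7 FPKM (log2 fold change -1.80) and left the 10. C3, complement component 3, entered them with Lpl, Col6a3 and Col6a2, rising from 107, 120 and 144 to 489, 545 and 526 FPKM (log2 fold change 2.01).

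The labelled cell type was checked against its markers. All 10 adipocyte markers rose (median log2 fold change 6.69), and their summed level went from 70.9 to 90.7 FPKM on day 1 up to 2397 to 2654 FPKM on day 3. Markers of other cell types were low: the 10 macrophage markers summed to between 4.09 and 7.14 FPKM in every library, with Adgre1, Ptprc and Tyrobp at 0, and 2 of the 5 tested rose and 3 fell. The 10 endothelial markers summed to 0.27 to 0.54 FPKM on day 1 and 0.84 to 1.04 FPKM on day 3, with Tie1, Cldn5 and Erg at 0, while Pecam1 and Cdh5, at most 0.12 and 0.06 FPKM on day 1, had at most 0.57 and 0.30 FPKM on day 3. The 9 skeletal muscle markers in the table went from 1.27 to 1.74 FPKM up to 7.16 to 7.34 FPKM, with 6 of them, Myod1 and Myog included, at 0 and the rise in Des, for desmin. Bone and cartilage markers summed to 27.8 to 31.2 FPKM on day 1 and 25.3 to 29.4 FPKM on day 3; Sox9 and Runx2 fell and Alpl rose, and Acan was at 0. Epithelial markers went from 4.21 to 6.10 FPKM up to 45.8 to 51.2 FPKM, all of it in the keratin genes Krt8, Krt18, Krt19 and Krt14, while Epcam and Cdh1 had at most 0.02 and 0.01 FPKM in any library. Markers listed at 0 are under the same doubt as Cdkn1c above and are not read as absence. The part of these markers in the other results was not tested.

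To see which of these changes differed when PRMT1 was depleted, the change in siCtrl was set against that in the 6 siPRMT1 libraries, which share no sample with it, by the interaction of siRNA and day over 12 libraries. The depletion was partial at the RNA level. In siPRMT1 cells Prmt1 had 43.8, 38.6 and 41.4 FPKM on day 1 and 62.0, 71.7 and 68.5 FPKM on day 3, below the siCtrl values of the same day given above. Of 14612 genes 697 had a more positive and 507 a more negative day change in siPRMT1 cells, together 8.24%, and of the 82 named genes that were tested 18 did (21.95%). In 10 of the 18 a fall in siCtrl cells was smaller or turned in siPRMT1 cells, in 5 a rise was smaller or absent, in 2 a rise was larger, and Per1 was not called in siCtrl. The largest rises and falls among the named genes were chosen on the same siCtrl libraries, which favours a smaller change in siPRMT1 cells (Gpd1, G0s2, P4ha3, Ly6a, Matn4, Ptgfr and Gem are such genes), so nothing is read from these shares. Among the named genes the smallest p belonged to Lox. It went from 132, 131 and 120 to 48.5, 52.8 and 48.2 FPKM in siPRMT1 cells. Its day change was 1.24 higher on the log2 scale than in siCtrl (standard error 0.1002, edgeR's adjusted p = 4.2e-06). For Cxcl12 the siPRMT1 libraries had 123, 119 and 120 FPKM on day 1 and 152, 148 and 143 FPKM on day 3, higher where siCtrl was lower (difference 0.81, edgeR's adjusted p = 6.5e-06). Ly6a fell less, from 350.0, 385 and 374 to 54.5, 56.9 and 48.8 FPKM (difference 1.2, edgeR's adjusted p = 6.9e-05). Pparg, Cebpa and Adipoq were not called, with differences of 0.24, 0.44 and 1.34 and edgeR's adjusted p of 0.096, 0.12 and 0.11. The number of more negative genes rested on siCtrl day 1 replicate 3, siCtrl day 3 replicate 2 and siPRMT1 day 1 replicate 3: it was 1005, 310 and 305 without each of them in turn.

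**Figure D5:**
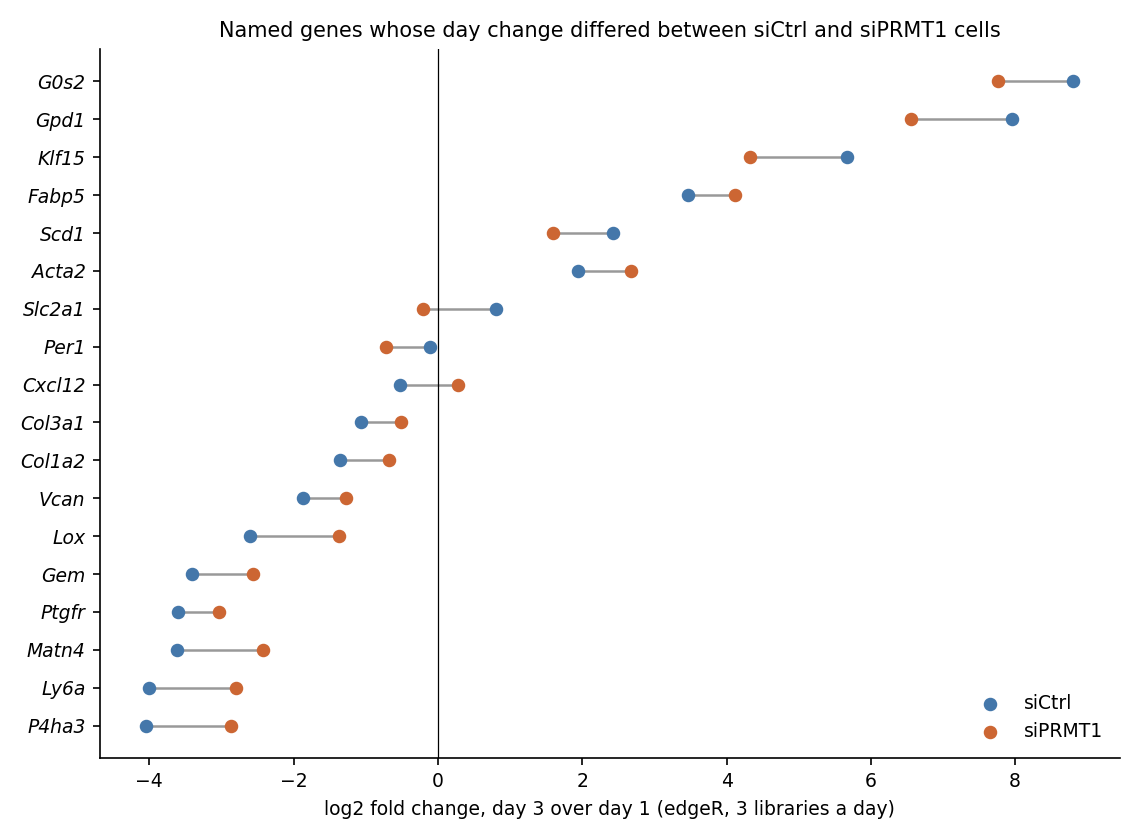
Log2 fold change from day 1 to day 3 (horizontal axis, edgeR, 3 libraries a day) in siCtrl and in siPRMT1 cells for the 18 named genes whose day change differed between the siRNAs; each line joins the 2 values of 1 gene. The siPRMT1 point lies nearer to 0 than the siCtrl point for most of the genes, and Fabp5, Acta2 and Per1 lie further from 0.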

How the data were processed

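Messenger RNA of 3T3-L1 cells was sequenced by the authors from MGIEasy libraries on an MGI sequencer. The reads were filtered with cutadapt 1.11 and mapped with HISAT2 2.1.0, and the submitters' processing notes also list RSEM 1.2.6 and mm10; strand setting and treatment of reads with several matches are not given in the sources used here. The deposited counts are whole numbers per gene without normalization. The FPKM values deposited beside them, made by the authors from counts, gene length and library total, were rebuilt to within 0.005. Names with a number suffix (2266, with 0.612% of counts) were kept as separate rows.

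Counts of the 6 siCtrl libraries were tested with edgeR 4.0.16 (R 4.3.3) by the quasi-likelihood method after TMM normalization and filterByExpr, with Benjamini-Hochberg adjustment over 13829 genes; a call needed an adjusted p below 0.05 with a log2 fold change beyond 0.5 in either direction. The study's tool, DESeq2 1.42.0, was an alternative, beside other scalings, filters, thresholds, all 12 libraries in 1 model, a replicate block and each library left out. The interaction was tested over 12 libraries. Simulated counts for siCtrl day 3 against day 1 had 200 of 13829 genes changed, as many up as down. There edgeR recovered 79 of 100 genes changed by 1 and 97 of 100 changed by 2 on the log2 scale, with 14 false calls. In the data 43.2% of genes were called and large rises outnumbered large falls, a setting that the simulation did not cover.

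The comparison, the 38 hand-written lists (785 members tested) and the adipocyte markers were chosen with earlier results of these data known, and lists are described by counts and medians without a test. Named genes are those marked in the lists, the 10 largest rises and falls among called genes with at least 5 CPM on average, no overlap between the days and no suffix, the 10 highest shares of counts each day, Prmt1 and Actb, and the 3 of the marked and extreme genes with the smallest interaction p. Of the marked genes 2 are not reported here. Replicates sharing a number deviated with r = 0.222, -0.105 and 0.0620 across genes, so numbers were not taken as pairs. Intervals and floors cover counting error only.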

Additional observations from a re-analysis of the deposited data

Results flagged for a closer look

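The change from day 1 to day 3 differed between siPRMT1 and siCtrl cells for 18 named genes, by edgeR's interaction of siRNA and day (called at an adjusted p below 0.05 with a log2 difference beyond 0.5 in either direction). Differences below are the siPRMT1 minus the siCtrl log2 fold change, with edgeR's adjusted p. Among genes that fell in siCtrl cells, the difference was 1.24 for Lox (4.2e-06), 0.81 for Cxcl12 (6.5e-06), 1.2 for Ly6a (6.9e-05), 0.69 for Col1a2 (1.4e-04), 0.84 for Gem (1.6e-04), 0.56 for Col3a1 (3.0e-04), 1.17 for P4ha3 (3.7e-04), 1.19 for Matn4 (0.0043), 0.60 for Vcan (0.019) and 0.57 for Ptgfr (0.027). Each of these genes fell less in siPRMT1 cells, apart from Cxcl12, which had a log2 fold change of 0.28 there.

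Among genes that rose in siCtrl cells, the difference was -0.82 for the desaturase gene Scd1 (7.8e-05), -1.01 for Slc2a1 (7.8e-05), -1.40 for Gpd1 (0.0029), -1.05 for G0s2 (0.035) and -1.34 for Klf15 (0.037). Slc2a1 had a log2 fold change of -0.21 in siPRMT1 cells. The difference was positive, that is, the rise was larger, for Fabp5 (0.66, adjusted p 0.0023) and Acta2 (0.73, adjusted p 0.0027). For Per1 it was -0.61 (0.0032), with a log2 fold change of -0.72 in siPRMT1 cells.

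In 14 of the 18 genes the difference was called under all 16 alternatives. Klf15, G0s2, Ptgfr and Vcan were called under 9, 7, 9 and 14 of the 16, and each loss came with 1 library left out. Their differences ranged over the alternatives from -1.79 to -1.04, from -1.34 to -0.73, from 0.48 to 0.67 and from 0.49 to 0.73.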

How the results depend on the processing

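The numbers of genes that rose or fell stayed within 1.5 times under every alternative but an absolute log2 fold change over 1, which left 1660 and 1285. Scaling by library totals alone gave 3505 higher and 2457 lower genes, DESeq2 3166 and 2836, and the replicate block 3140 and 2789. With 1 library left out, 2768 to 3435 genes rose and 2798 to 3203 fell. For the interaction of siRNA and day, dropping the threshold on the fold change raised the more positive genes to 1123, and leaving out 1 library gave 504 to 902 more positive and 305 to 1005 more negative genes; the block gave 735 and 542. No called named gene changed direction, and the block changed the call of no named gene but Ppargc1a, which was called under 5 of 15 alternatives, with log2 fold changes from 0.31 to 0.75. The medians of 2 lists changed sign because further genes entered: that of the endothelial markers, 2.30, was -0.64 with DESeq2 and -0.46 without a filter on low counts, and that of the bone and cartilage markers, -0.63, was 0.73 and 0.68. Without siCtrl day 1 replicate 3, 18 in place of 21 replication genes and 55 mitosis genes fell, and 27 in place of 22 respiratory chain genes rose. Where all libraries of a day had no count, the change of a gene is given only as a bound.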
